A study of Caenorhabditis elegans with 2 samples.

Results

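The genes described are 6 of the 19973 protein-coding genes on the nuclear chromosomes of the nematode Caenorhabditis elegans: mdl-1, mml-1, mxl-1, mxl-2, mxl-3 and hlh-30. They encode the Myc-, Mondo-, Mad- and Max-like proteins and the TFEB-like protein of the worm and are listed as a family. The summits counted for a gene lay inside it or within 2 kb of either end, on Ensembl gene models of WBcel235 (ce11). The peaks come from ChIP-seq of DMD-6, a DM-domain DNA-binding protein of the family of Drosophila Doublesex. All libraries were of 1 group in 2 biological replicates. The worms were of strain RJP5356, whose dmd-6 locus on chromosome IV carries the CRISPR insertion rp168, which adds GFP, AID (a degron), TEV and 3xFLAG to the protein. They were synchronised by L1 starvation after bleaching and collected whole as L4 larvae at 48 hours, and their sex was not collected. Chromatin was sonicated and precipitated with an antibody against GFP, although another label field names dmd-6 as the antibody. Every tissue of the larva is pooled in such a sample, and no second condition or untagged strain was analysed here, so the values below are a description without a test.

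The 6 proteins carry a basic helix-loop-helix (bHLH) domain and bind DNA as pairs, and the network is known for its preference for the palindromic E-box CACGTG. In worms MML-1, related to Myc and Mondo, pairs with MXL-2, the counterpart of Mlx, while MDL-1, related to Mad, pairs with MXL-1, the counterpart of Max. MXL-3 is a further Max-like protein that holds down lysosomal lipase genes in fed animals, and HLH-30, the counterpart of TFEB, turns on autophagy and lysosomal genes in fasting.

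In the list called on both replicates together, which held 7338 peaks, 4 of the 6 genes had a summit, against 34.3% of all protein-coding genes. These were mdl-1 with 6 summits, mml-1 with 3, mxl-3 with 4 and hlh-30 with 12. The Max-like genes mxl-1 and mxl-2 had none. The same 4 genes had a summit in each replicate's own list, where the share of all protein-coding genes was 33% in replicate 1 and 25.1% in replicate 2, and in a second list on both replicates that the authors call conservative, where it was 32.1%. The split between the 4 occupied genes and the 2 unoccupied ones was thus the same in every thresholded list.

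Palindromic E-boxes lay within 50 bp of 7 of the 25 summits (28%), against 6.88% of all 7338 summits. The windows of these 7 summits are printed because they show where the recognition sequence of the network itself stands inside DMD-6-GFP peaks at the network's own genes. Each runs from 50 bp before to 50 bp after the summit on the plus strand of WBcel235, 5′ to 3′, with CACGTG in capitals. The label far upstream at mdl-1 stands for 637 bp before the start site, nearer than the mml-1 summit at 1817 bp.
mdl-1 far upstream, chrX:6741664-6741764: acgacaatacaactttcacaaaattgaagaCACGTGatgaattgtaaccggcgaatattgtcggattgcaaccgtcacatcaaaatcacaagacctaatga
mdl-1 start site, chrX:6742217-6742317: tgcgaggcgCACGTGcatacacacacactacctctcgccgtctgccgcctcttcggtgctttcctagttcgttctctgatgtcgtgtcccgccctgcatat
mdl-1 intron, chrX:6742958-6743058: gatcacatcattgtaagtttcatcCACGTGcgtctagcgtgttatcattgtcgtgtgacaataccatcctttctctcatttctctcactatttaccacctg
mdl-1 past the 3′ end, chrX:6743964-6744064: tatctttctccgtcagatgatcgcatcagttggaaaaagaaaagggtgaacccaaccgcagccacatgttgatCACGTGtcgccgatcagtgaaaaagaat
mml-1 upstream, chrIII:7376498-7376598: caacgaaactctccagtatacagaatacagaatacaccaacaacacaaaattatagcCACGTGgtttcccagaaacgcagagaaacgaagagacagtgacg
mxl-3 past the 3′ end, chrX:13348551-13348651: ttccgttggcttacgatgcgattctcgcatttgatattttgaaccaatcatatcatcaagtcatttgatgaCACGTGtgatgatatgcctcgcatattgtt
hlh-30 intron, chrIV:4026009-4026109: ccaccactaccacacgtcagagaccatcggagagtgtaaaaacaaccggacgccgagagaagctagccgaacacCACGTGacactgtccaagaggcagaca

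Of these 7 windows, 4 belong to mdl-1, where the E-box lay 17, 38, 23 and 26 bp from the summit in the order printed. In mml-1 it lay 10 bp from the summit, in mxl-3 24 bp and in hlh-30 27 bp. CACGTG reads the same on both strands, so it was counted once. E-boxes were also more frequent at strong peaks in general, with 13% of the 1000 strongest summits against 6.88% of all summits. Of the 9 summits of these genes among the 1000 strongest, 5 had CACGTG, 4 of them at mdl-1.

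The looser E-box CANNTG, which includes CACGTG, was found on either strand at 12 of the 25 summits (48%), against 43.9% of all summits. The GATA-type word TGATAA was found at 5 summits (20%), against 31.4% of all. GAGAGAG was found at 3 summits (12%), all in hlh-30, against 8.39% of all. The DM-domain type word ACATTGT and the word TGTTGC were each found at 1 summit, the same hlh-30 summit upstream of an internal start site, against 1.87% and 5.86% of all summits. A match describes the letters in the window, not a bound site. The next windows, cut in the same way, are those of the 4 strongest summits without CACGTG within 50 bp, and so without capitals. The mxl-3 peak among them does hold a CACGTG, 67 bp from its summit and so outside the printed window. The label far past the 3′ end at mdl-1 stands for 834 bp past the gene, nearer than the mxl-3 summit printed above, at 1038 bp.
mdl-1 far past the 3′ end, chrX:6744683-6744783: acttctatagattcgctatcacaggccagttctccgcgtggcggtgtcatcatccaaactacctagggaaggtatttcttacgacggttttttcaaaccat
mxl-3 upstream, chrX:13351488-13351588: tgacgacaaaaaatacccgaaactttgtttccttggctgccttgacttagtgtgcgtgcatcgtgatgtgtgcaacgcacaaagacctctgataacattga
hlh-30 strongest, intron, chrIV:4024310-4024410: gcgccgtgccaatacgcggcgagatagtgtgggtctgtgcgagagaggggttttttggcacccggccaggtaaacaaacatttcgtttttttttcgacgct
hlh-30 internal start, chrIV:4028303-4028403: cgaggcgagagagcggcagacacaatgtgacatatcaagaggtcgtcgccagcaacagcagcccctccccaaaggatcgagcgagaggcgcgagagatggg

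The windows of the 6 genes held 19 CACGTG sites in all, and 10 of them lay inside a peak, against 5.31% of the 17729 such sites in the nuclear genome. At mdl-1, 5 of 8 sites were inside a peak, and at mml-1 and mxl-3 it was 2 of 3 sites each. At hlh-30 it was 1 of 4 sites, in 24.2 kb. Peaks covered 14.1% of the 6 windows, against 2.07% of the nuclear genome, and 37.3% of the mdl-1 window. The part of this coverage in the count was not tested. The window of mxl-2 held 1 site, outside any peak, and that of mxl-1 held none. CACGTG inside a peak was thus found at all 4 genes with summits, with the most at mdl-1.

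**Figure D1:**
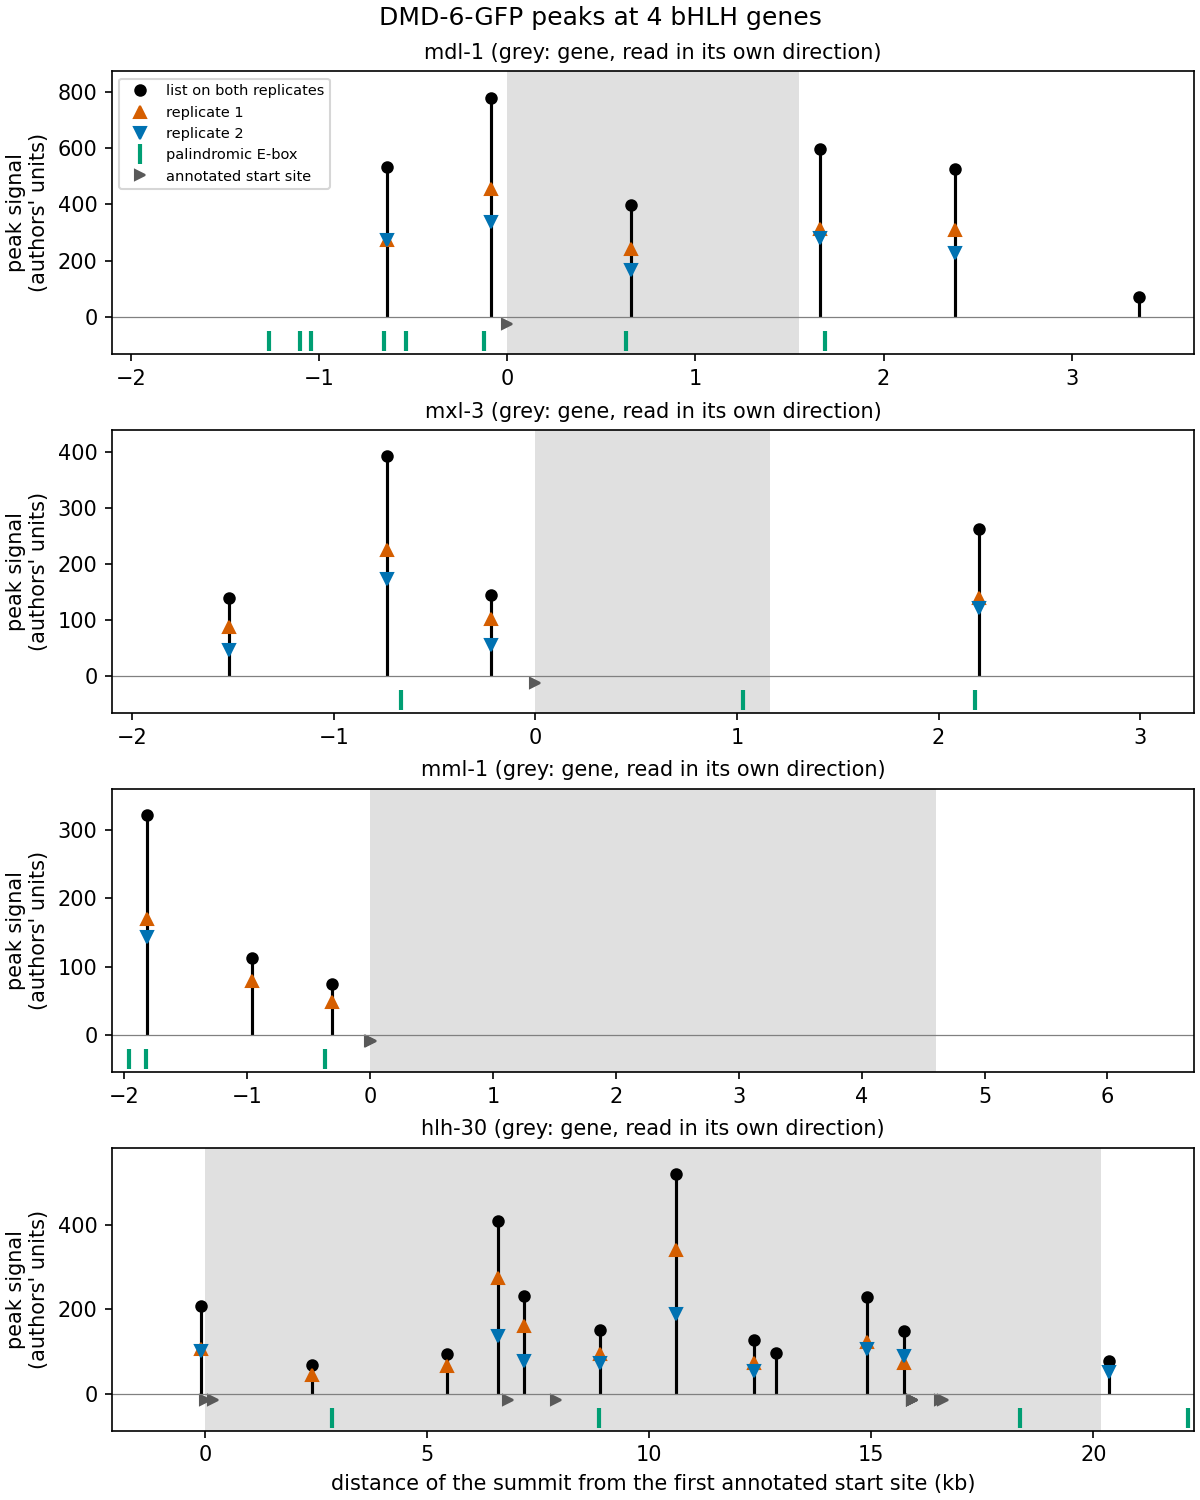
Peak signal at each summit (vertical axis, in the authors' units) against the distance from the first annotated start site of the gene (horizontal axis, kb, read in the direction of the gene) for mdl-1, mxl-3, mml-1 and hlh-30. Signals are drawn as deposited on a shared axis for each gene, although each list has its own scale, so heights cannot be compared between lists. Black circles are the list called on both replicates, triangles the replicates' own lists, grey shading the gene, grey arrowheads start sites and green ticks CACGTG: 5 of the 6 mdl-1 summits stand at 396 or more, and hlh-30 has 12 summits spread along 20.2 kb.

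mdl-1 (WBGene00003163, chrX:6742351-6743899, plus strand), which encodes the Mad-like repressor of the network, had the strongest peak of the 6 genes. That peak, with its summit at 6742267 and 84 bp upstream of the start site, had a signal of 779 in the joint list, where it was number 68 of 7338. It had a signal of 454 in replicate 1 and 338 in replicate 2, which put it 0.934% and 1.63% from the top of those lists. Signals are on a different scale in each list, and this peak was near the top of all 3.

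A further 4 strong peaks flanked it. The summit at 6741714, 637 bp upstream of the start in intergenic DNA, had a joint signal of 532, with 274 in replicate 1 and 275 in replicate 2. The summit at 6743008, in an intron 657 bp past the start, had a joint signal of 396, with 241 in replicate 1 and 168 in replicate 2. These peaks thus covered the upstream side and the body of the gene.

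On the other side, the summit at 6744014, 115 bp past the end of the gene, had a joint signal of 597, with 312 in replicate 1 and 281 in replicate 2. The summit at 6744733, 834 bp past the end, had a joint signal of 525, with 310 in replicate 1 and 229 in replicate 2. Both lay in the promoter window of a gene that is not protein-coding, where a promoter window covers the 500 bp before a start site and the 100 bp after it. All 5 strong peaks were found in both replicates, and their summits in the replicates were 0 to 19 bp apart.

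The remaining mdl-1 summit, at 6745708 and 1809 bp past the gene, was weak, with a joint signal of 72.2 and number 6521 in the list, and was found in neither replicate's own list. It also lay within 2 kb of abts-4, the next gene downstream. A peak with its summit at 6741089 passed the threshold in replicate 1, with a signal of 42.1, and in the conservative list, with 89.5, but not in the joint list. Its interval spans 2 of the 3 mdl-1 E-boxes that lay outside the joint peaks. The mdl-1 locus was therefore nearly as dense in each replicate alone, with 6 summits in replicate 1 and 5 in replicate 2.

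Long genes have more room for summits, so the counts were also set per kb of gene and flanks. mdl-1 had 1.08 summits per kb, a density reached by 0.0350% of protein-coding genes. At least 6 summits were found at 0.466% of all protein-coding genes, but at only 4 of the 7232 with a window no longer than that of mdl-1 (0.0553%). The other 3 were lbp-6, ant-1.2 and R11A5.6, all on chromosome I, whose strongest signals were 156, 196 and 207, against 779 at mdl-1. The nearest protein-coding genes are R03E9.2, 9.05 kb upstream, and abts-4, 3.40 kb downstream, while genes that are not protein-coding start closer, at the 2 strong peaks past the end of mdl-1.

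hlh-30 (WBGene00020930, chrIV:4014793-4034951, minus strand), which encodes the TFEB counterpart, spans 20.2 kb with 13 annotated transcripts and 10 start sites. Its 12 summits were spread over the gene, 10 of them inside it. At least 12 summits were found at 4 protein-coding genes (0.02%): hlh-30, lin-14, vhp-1 and ncl-1, all with windows of 21.6 to 24.3 kb. Per kb, hlh-30 had 0.497 summits, a density reached by 2.05% of genes, so that its rank by density was far below its rank by count.

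The strongest hlh-30 peak, with its summit at 4024360 in an intron and 2703 bp past the internal start site at 4027063, had a joint signal of 522, with 340 in replicate 1 and 190 in replicate 2. The next, at 4028353 and 226 bp upstream of the internal start at 4028127, had a joint signal of 409, with 275 in replicate 1 and 138 in replicate 2. The most upstream peak, with its summit at 4035057 and 106 bp before the first start site, was weaker, with a joint signal of 207, 107 in replicate 1 and 102 in replicate 2. The strongest occupancy at hlh-30 was thus inside the gene and not at its first start site.

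A summit also lay 173 bp upstream of the downstream group of start sites, at 4019217, with a joint signal of 150, 72.1 in replicate 1 and 88.8 in replicate 2. Of the 12 hlh-30 peaks, 8 were found in both replicates. The 4 others were weak, with joint signals of 68.8 to 95.7: those at 4029516 and 4032549 were found in replicate 1 only, that at 4014608 in replicate 2 only, and that at 4022090 in neither. The peak with the E-box, at 4026059, was of middling strength, with a joint signal of 152, 93.5 in replicate 1 and 71.4 in replicate 2.

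mxl-3 (WBGene00003511, chrX:13349639-13350804, minus strand), the Max-like gene with summits, had 4 peaks, a count reached by 2.05% of protein-coding genes, and all 4 were found in both replicates. The strongest, with its summit at 13351538 and 734 bp upstream, had a joint signal of 392, with 226 in replicate 1 and 173 in replicate 2. It lay in the promoter window of a gene that is not protein-coding, and its interval held a CACGTG 67 bp from the summit. The peak 1038 bp past the gene, at 13348601, had a CACGTG within 50 bp of its summit. Its joint signal was 262, with 139 in replicate 1 and 120 in replicate 2. It also lay within 2 kb of ptr-24, so position alone assigns neither of these peaks to mxl-3.

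The peaks 219 bp and 1518 bp upstream of mxl-3 were weaker, with joint signals of 144 and 139. They were numbers 3060 and 3646 of 6533 peaks in replicate 1 and numbers 3649 and 4276 of 4653 in replicate 2, and lists of different length allow no comparison of these ranks. A further peak, with its summit at 13349504 near the 3′ end, passed only in replicate 1, with a signal of 51.5, and in the conservative list. With 0.774 summits per kb, mxl-3 was in a density range reached by 0.345% of protein-coding genes.

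mml-1 (WBGene00003378, chrIII:7370130-7374731, minus strand), which encodes the Myc- and Mondo-like activator, had 3 summits, a count reached by 5.03% of protein-coding genes, all of them upstream. The only one found in both replicates was the farthest, at 7376548 and 1817 bp upstream, with a joint signal of 322, 170.5 in replicate 1 and 144 in replicate 2. It also lay within 2 kb of T20B12.7. The peaks 307 bp and 959 bp upstream had joint signals of 74.0 and 112 and were found in replicate 1 only, with 48.7 and 79.0. In replicate 2 alone, mml-1 therefore had 1 summit, and its occupancy near the start site rests on replicate 1.

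mxl-1 (WBGene00003509, chrV:11244839-11245926, plus strand), the partner gene of mdl-1, and mxl-2 (WBGene00003510, chrIII:186949-188131, minus strand), the partner gene of mml-1, had no summit in any thresholded list. The nearest joint summit was 8.66 kb from mxl-1 and 32.6 kb from mxl-2. mxl-1 begins 113 bp after the end of pgap-1 on the same strand. The unthresholded ranked list on both replicates, which holds an entry for 65.2% of protein-coding genes, had none for mxl-1. The ranked list of replicate 1 had none either, and that of replicate 2 had 1 weak entry with a signal of 21.9.

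For mxl-2, the joint ranked list held 8 entries, none past the threshold of a −log10 irreproducible discovery rate (IDR) of 2. The highest had a signal of 53.0 and a −log10 IDR of 1.13. In each of the 2 known pairs, the gene of the Mad- or Myc-like partner thus had a summit in its window. The gene of the Max-like partner had none. At mml-1, the only summit found in both replicates lay 1817 bp upstream, also within 2 kb of T20B12.7. Sequencing depth is unknown, so a signal below the threshold cannot be told from none.

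**Figure D2:**
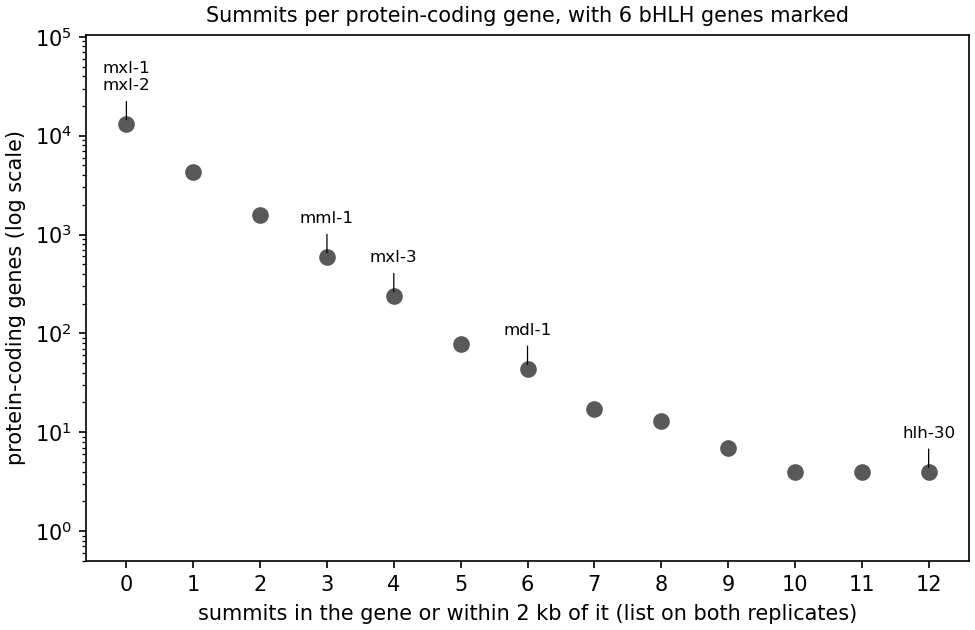
Number of protein-coding genes (vertical axis, log scale) by the number of summits within the gene and its 2 kb flanks (horizontal axis) in the list called on both replicates; each circle is 1 count over 19973 genes. mxl-1 and mxl-2 are among the genes with 0 summits, mml-1, mxl-3 and mdl-1 have 3, 4 and 6, and hlh-30 shares the highest count of 12.

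Of the 25 summits, 18 (72%) came from peaks that overlapped a peak of both replicates by at least 1 bp, against 58.5% of all 7338 peaks. A further 4 were found in replicate 1 only, 1 in replicate 2 only and 2 in neither, and 21 were in the conservative list. For the 18 shared peaks, the summits of the replicates were a median of 10.5 bp apart (range 0 to 57), against 17 bp over all 4293 shared peaks. Peaks of the default width of 344 bp, whose summit is the midpoint of the interval, made up 11 of the 25 (44%), against 59.4% of all. Whether the place of the summit is less precise in those was not tested.

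**Figure D3:**
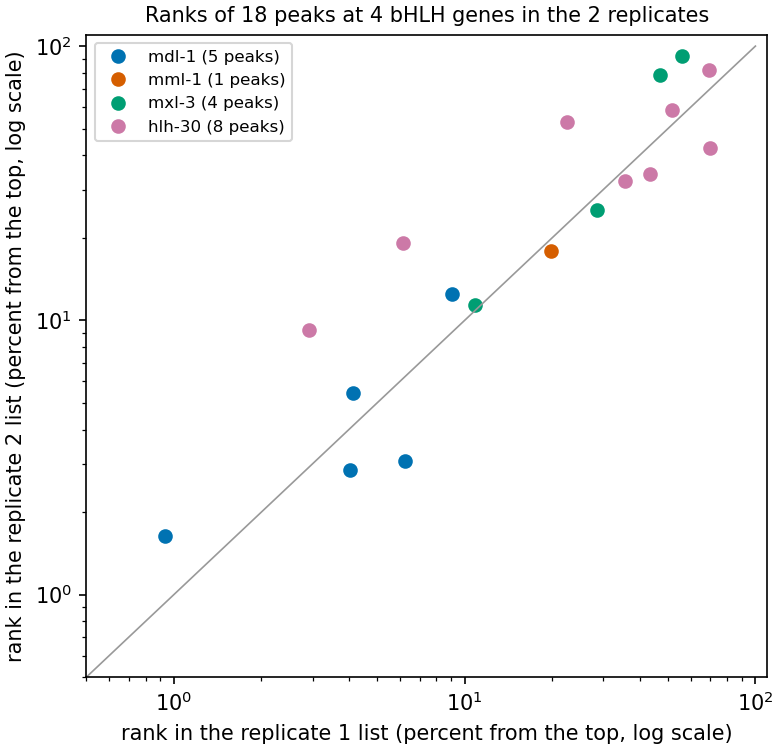
Rank of the 18 peaks found in both replicates, as percent from the top of the replicate 1 list (horizontal axis) and of the replicate 2 list (vertical axis), both on log scales, coloured by gene; the line marks equal percent, and the lists differ in length, so a distance from it shows no change. All 5 mdl-1 peaks lie within the leading 12.5% of both lists, and the strongest hlh-30 peak lies 2.91% from the top in replicate 1 and 9.20% in replicate 2.

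By position, 11 of the 25 summits (44%) lay in the promoter window of any gene, against 52.1% of all summits, and 6 (24%) in that of a protein-coding gene, against 39.2%. Introns held 7 summits (28%), against 15.9% of all, and intergenic DNA held 7 (28%), against 25.6%. Except for the mdl-1 summit at 6743008, all the intronic summits were in the long gene hlh-30. None lay in a coding exon, against 3.67% of all. Among protein-coding start sites, the closest to each of the 25 belonged to the bHLH gene itself, though 4 also lay within 2 kb of another protein-coding gene (abts-4, T20B12.7, ptr-24 and clec-78).

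The wider network was described with 3 gene lists. The list of autophagy and lysosomal genes holds the autophagy genes and lysosomal lipases that HLH-30 and MXL-3 are known for, and also other lysosomal genes such as the proteases cpr-1 and asp-1 and the membrane protein gene lmp-1. Of its genes, 19 of 29 (65.5%) had a summit, cpr-1, asp-1 and lmp-1 among them, against 34.3% of all protein-coding genes, and 8 had 1 of the 1000 strongest, against 6.71% of all. The strongest signals were 788 at lipl-2, a lysosomal lipase gene, 712 at sqst-1, which encodes the p62-like autophagy receptor, and 591 at lgg-2 and 409.7 at lgg-1, which encode the Atg8-like proteins. In replicate 1, the summits of these peaks lay 1531, 1794, 319 and 900 bp from the genes, in the order named. Position alone does not assign them to these genes. Of the 29 genes, 19 had a summit in replicate 1 (against 33% of all genes) and 18 in replicate 2 (25.1%).

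TORC1 and lysosomal nutrient sensing form a pathway that acts upstream of TFEB. Of its 16 listed genes, 7 (43.8%) had a summit, against 34.3% of all protein-coding genes. The count was 8 in replicate 1 (against 33% of all genes) and 7 in replicate 2 (25.1%). The strongest signals were 563 at rheb-1, the GTPase that activates TORC1, and 509 at aak-2, a catalytic subunit of AMPK. Next were 304 at lmtr-3, a Ragulator subunit, and 279.7 at rsks-1, the S6 kinase. With the 2 kb flanks, this share was nearer to that of all genes than the share of the autophagy list. Inside the genes alone, the order was not the same: 5 of the 16 had a summit, against 4 of the 29 autophagy genes and 9.04% of all genes.

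Of 34 other bHLH genes, 11 (32.4%) had a summit, a share near the 34.3% of all protein-coding genes. The count was 9 in replicate 1 (against 33% of all genes) and 8 in replicate 2 (25.1%). The strongest joint peak was at hif-1, the hypoxia-inducible factor gene, with 534, and the peak overlapping it had 322 in replicate 1 and 205 in replicate 2, where its summit lay 2006 bp from hif-1 and so just outside the window. At hlh-33 the joint signal was 323, with 159 in replicate 1 and 159 in replicate 2, and at hlh-15 it was 298, with 231 in replicate 1 and 66.3 in replicate 2. At lin-32, the Atonal counterpart, it was 219, with 122 in replicate 1 and 109.7 in replicate 2. The order of these genes thus differed between the replicates, and hlh-15 was below hlh-33 and lin-32 in replicate 2. The strongest mdl-1 peak was above all 4 in each list. In replicate 1, the summits lay 1970 bp from hif-1, 123 bp from hlh-33, 1738 bp from hlh-15 and 1824 bp from lin-32.

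**Figure D4:**
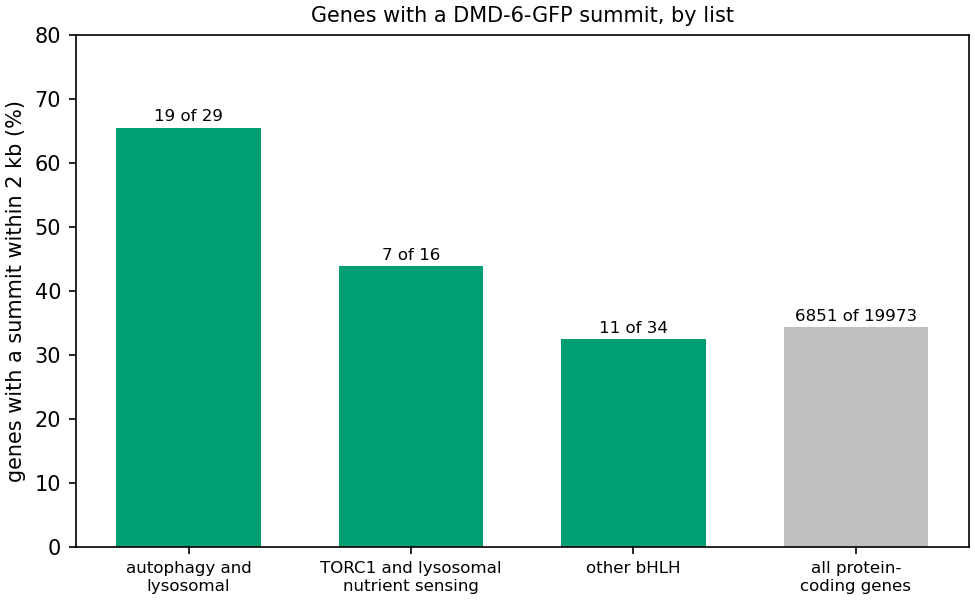
Share of genes with a DMD-6-GFP summit inside the gene or within 2 kb (vertical axis, percent) for 3 gene lists and for all protein-coding genes, with the counts above each bar. The autophagy and lysosomal list stands at 65.5%, TORC1 and lysosomal nutrient sensing at 43.8%, other bHLH genes at 32.4% and all protein-coding genes at 34.3%.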

How the data were processed

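The 8 deposited lists of DMD-6-GFP ChIP-seq peaks, on ce11 per the file headers, were used. Each of the 2 replicates has its own thresholded and ranked list, and the authors called the other 4, a thresholded, a conservative and their ranked forms, on the replicates together. Aligner, peak caller and read depth: not given in the sources used here. The deposited signal is the authors' value per peak, on its own scale in each list, and it served only to rank peaks within a list. The deposited score, which reaches 1000, is the authors' peak score. The deposited ranked lists also give the −log10 of the global IDR, and the thresholded lists hold peaks with at least 2 (IDR 0.01), apart from 32 to 45 passing peaks left out, none of them at the 6 genes. The summit was taken as the start of the peak plus the deposited offset. The larger thresholded list on both replicates is called the joint list.

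Summits were assigned in Python 3.11.15 with numpy 2.4.6 and pandas 2.3.3 to gene models of Ensembl release 115, and sequence came from the RefSeq copy of WBcel235. Summits outside promoter windows went to the untranslated or coding exons, then introns, then intergenic DNA. The functions were tested on simulated data. The genes and the 3 lists were chosen with earlier results of these data known. From each list, the 4 genes with the strongest summit are named; lbp-6, ant-1.2, R11A5.6, lin-14, vhp-1 and ncl-1 were named after their values were seen. Windows of 0, 1 and 5 kb, assignment by interval or by nearest start, other lists, each replicate alone and stricter and looser thresholds were tried. The control experiment named in the labels was not used here.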

Additional observations from a re-analysis of the deposited data

How the results depend on the processing

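Of the 6 genes, 4 had a summit within 1 kb (against 27.5% of all genes), within 5 kb (50.1%), by interval (35.1%), by nearest start (22.9%), in the conservative list (32.1%), in each replicate alone (25.1% and 33%), among peaks shared by both replicates (23.2%) and among the 1000 strongest (6.71%). Inside the gene alone, 2 had (hlh-30 and mdl-1, with 11 summits), against 9.04% of all genes. So had 3 of the 34 other bHLH genes, 5 of the 16 TORC1 genes and 4 of the 29 autophagy genes. With any ranked entry 5 of 6 had, with 65 entries, 17 other bHLH genes and 14 TORC1 genes, against 65.2% of all genes. Leaving out a replicate gave 4 to 4 genes, 19 summits (without replicate 1) to 24 (without replicate 2), 8 to 9 other bHLH genes, 7 to 8 TORC1 genes and 18 to 19 autophagy genes. Of the 34 other bHLH genes, 7 had a summit within 1 kb (against 27.5% of all genes), 18 within 5 kb (50.1%) and 5 by nearest start (22.9%). For peaks overlapping both replicates it was 7 by 1 bp (23.2%) and also 7 by 50% of the shorter peak (23.1%). Single genes moved too: mxl-3 had 2 summits within 1 kb, 7 within 5 kb and 8 by nearest start, with its strongest 2.66% and 1.57% from the top in those 2 wider settings, against 8.74% as reported. mdl-1 had 10 summits within 5 kb and 11 by nearest start. The strongest mml-1 summit was 63.2% from the top within 1 kb, against 13.5%. The 1000 strongest peaks left 9 summits at the 6 genes, 2 other bHLH genes, 2 TORC1 genes and 8 autophagy genes. A window of 150 bp on either side, chosen after seeing the data, gave CACGTG at 9 of 25 summits, against 12.2% of all. Of 62 alternative values for the counts over the 6 genes and the 3 lists, 46 were within 1.5 times the reported value and 16 were not. The counts and ranks of single genes are not among them: of those, 28 were classed as moved and 62 as the same. No paired analysis was possible because the series has 1 group. Read depth is unknown, so how far it limits weak peaks cannot be given.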

Other observations

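The 5 strong mdl-1 summits, all among the 1000 strongest of the joint list, lay within 3019 bp. By a rule chosen after these values were seen, this was the only place in the genome with 5 of the 1000 strongest summits within 5 kb.

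For each gene with summits, 4704 other protein-coding genes were compared. These had a summit in the joint list and in both replicates' own lists, and shared no summit with the 6. They were ranked by the sum, over the joint list and both replicates, of the absolute differences in percent rank of the strongest summit. The nearest to mdl-1 was nhr-3, a nuclear receptor gene, with a sum of 0.173 and signals of 773 in the joint list, 448 in replicate 1 and 329 in replicate 2. The nearest to hlh-30 was dmd-8, a DM-domain gene, with a sum of 0.622 and signals of 535, 345 and 191 in the same lists. The nearest to mxl-3 was cpz-1, a cathepsin Z-like gene, with a sum of 0.954, and the nearest to mml-1 was T24B8.3, with a sum of 1.30. Likeness here is over 2 replicates and the list made from both, and describes rank only.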
